A study of Mus musculus with 8 samples.

Results

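The genes described here are 41 mouse genes that encode the machinery of glycolysis, glucose and lactate transport, glycogen metabolism and phosphocreatine in muscle. They came from a list of symbols that was matched to the Ensembl identifiers of the count tables. The list was chosen with earlier results of these data known. All 41 were found among the 53647 identifiers listed. Aldoa matched 2 identifiers, and the row with 48 to 70 counts in control and IL6 libraries and 41 to 56 in LIF and OSM libraries was set aside in favour of the main Aldoa row. The counts come from primary myotubes, the multinucleated fibres that form when cultured muscle precursor cells fuse, made from the limb muscle of WT mouse pups. The 8 libraries fall into 4 groups of 2. Controls received no cytokine that the labels name. Each treated group received 1 cytokine at 250 ng/ml for 48 h, namely OSM (oncostatin M), IL6 (interleukin 6) or LIF (leukaemia inhibitory factor), relatives that signal through the receptor chain gp130. All 4 groups share the WT genotype, the differentiation medium with horse serum and a harvest 72 h after differentiation. Whether the 2 libraries of a group came from separate animals or dishes is not given, so p-values measure the spread between these samples only, which may be technical.

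Skeletal muscle takes up glucose through the transporters GLUT1 and GLUT4, traps it with hexokinase, and either stores it as glycogen or passes it down glycolysis to pyruvate and lactate. Creatine kinase moves phosphate between ATP and creatine and so buffers ATP at the sarcomere. Many steps have a muscle isozyme (Pfkm, Pgam2, Eno3, Pygm, Ckm) whose expression grows as fibres mature and a more widely expressed relative (Pfkl, Pgam1, Eno1, Pygb, Ckb).

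Of the 41 genes, 40 passed the filter on low counts and were tested. Fbp2, the muscle fructose-1,6-bisphosphatase, did not, with 1 to 13 counts per library. With OSM, 6 of the 40 tested genes changed, 5 higher and 1 lower, where 21.4% of all 15603 tested genes were called, 10.8% higher and 10.6% lower. With LIF, 5 changed, 3 higher and 2 lower (12.5%), against 7.66% of all genes, 4.2% higher and 3.46% lower. With IL6, 0 changed by edgeR's quasi-likelihood test, 4 of the 40 had an unadjusted p under 0.05, and DESeq2 called 1, Gbe1. The share of all genes called with IL6 was 0.0% in edgeR, where 795 genes had an unadjusted p under 0.05, and 0.187% in DESeq2. Calls here and below are at a Benjamini-Hochberg adjusted p under 0.05 over all tested genes, and changes are on the log2 scale, each with its standard error (SE) from the model. Levels are in CPM, read counts brought to a common library size with TMM factors (the trimmed mean of M values).

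The genes that rose with at least 1 cytokine against control were the glucose transporter Slc2a1, the fructose-2,6-bisphosphate enzyme Pfkfb3, the minor aldolase Aldoc, the lactate transporter Slc16a1 and the glycogen branching enzyme Gbe1. Apart from Aldoc, the 16 enzyme genes from hexokinase to pyruvate kinase were not called with any cytokine. Those that fell were the glucose transporter Slc2a4 and the creatine kinases Ckb and Ckmt2. The median absolute log2 change of the 40 genes was 0.10 with OSM, 0.11 with LIF and 0.078 with IL6. Over all tested genes it was 0.19, 0.13 and 0.087. The signed medians were 0.035, 0.048 and −0.011, beside −0.003, −0.008 and 0.001 over all genes. With 2 libraries a group, groups that do not overlap are common. The libraries did not overlap for 19 of the 40 genes between OSM and control (60.9% of all genes), 17 between LIF and control (52.0%) and 8 between IL6 and control (28.2%). Between cytokines they did not overlap for 17 genes for OSM and LIF (56.6%), 17 for OSM and IL6 (54.3%) and 11 for LIF and IL6 (43.5%).

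**Figure D1:**
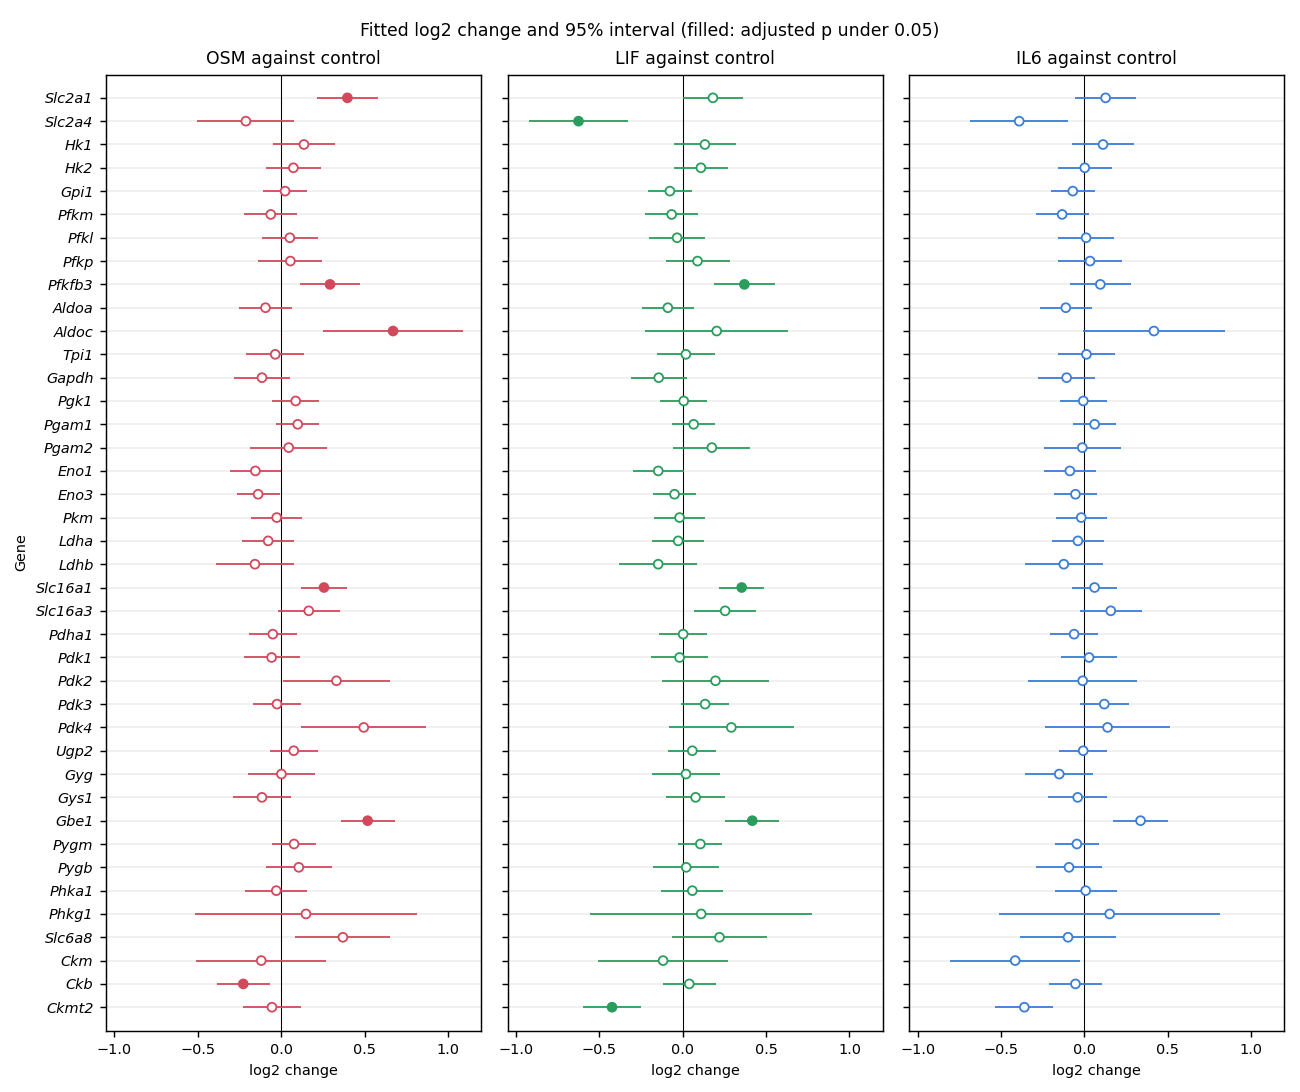
Fitted log2 change (x axis) of the 40 tested genes (y axis, in order of role) for OSM, LIF and IL6 against control, with 95% intervals as lines and genes called at an adjusted p under 0.05 as filled circles. With OSM 6 circles are filled, with LIF 5 and with IL6 0, and the glycolytic enzymes from Hk1 to Pkm lie close to 0 apart from Aldoc and the regulator Pfkfb3.

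Depth and culture make-up bear on all of these values. The libraries held between 29482077 and 30025471 counts in genes, and the 41 genes took 3.09% to 3.36% of them. Among markers of other cell types, the 3 erythroid genes, Lum and Emcn were at 0 in all libraries. The 6 macrophage genes summed to 2.44 to 2.89 CPM in control and 4.73 to 5.82 CPM with OSM, and the 5 endothelial genes to at most 1.91 CPM in any library. The 5 adipocyte genes summed to 0.412 to 0.571 CPM in control, 0.304 to 0.794 with IL6, 0.234 to 0.639 with LIF and 1.28 to 1.61 with OSM. Fabp4 of that list and Cd68 of the macrophage list were called higher with OSM, by 1.68 and 1.03. The 4 Schwann or neural genes summed to at most 2.96 CPM. The 7 fibroblast genes were more abundant, at 1652 to 1717 CPM in control, 1504 to 1704 with IL6, 1984 to 2047 with LIF and 2059 to 2167 with OSM. The 12 myotube genes, which include Acta1, Mylpf and Myh3, summed to 30100.0 to 31489 CPM in control, 26376 to 29386 with IL6, 27282 to 29212 with LIF and 26450.0 to 26638 with OSM. The sum is carried by its abundant genes, and 2 of the 12 were called higher and 5 lower with OSM, and 2 higher and 2 lower with LIF. Those higher were Actn3 (0.27 with OSM, 0.58 with LIF) and Des (0.30 and 0.55). Those lower were Tnnc2 (−0.36 with OSM, −0.38 with LIF) and Myh8 (−0.20 and −0.24). With OSM Tnni2 (−0.36), Mylpf (−0.31) and Myl1 (−0.23) were also lower. The medians of the 12 were −0.22 with OSM and −0.15 with LIF. The 6 myoblast genes summed to 1225 to 1269 CPM in control, 1283 to 1322 with IL6, 1530.4 to 1570 with LIF and 1582 to 1642 with OSM. The 6 proliferation genes fell from 731 to 868 CPM in control to 535 to 578 with LIF and 204 to 249 with OSM, and were at 688 to 747 with IL6. All 6 proliferation genes were called lower with OSM and 5 with LIF. Of the 6 myoblast genes 4 were called higher with OSM and 2 with LIF, and 0 lower. Of the 5 fibroblast genes tested 2 were called higher with OSM and 1 with LIF, and 0 lower. Over all genes 10.8% were called higher with OSM and 4.2% with LIF. In bulk RNA, fewer cells of a type and less RNA per cell cannot be told apart, and the part that these shifts have in the results below was not tested.

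Of the 4 genes of glucose entry, Slc2a1 rose with OSM and Slc2a4 fell with LIF. Slc2a1 (ENSMUSG00000028645), which encodes the basal glucose transporter GLUT1, was at 571 and 488 CPM in the control libraries, 603 and 554 with IL6, 602 and 598 with LIF, and 743 and 652 with OSM. Both OSM libraries lay above all 6 others. The change with OSM was 0.40 (SE 0.084, adjusted p 0.00434, edgeR), which is 31.7% higher. With LIF it was 0.18 (adjusted p 0.244, edgeR) and with IL6 0.13 (adjusted p 0.947, edgeR), and neither passed. OSM exceeded IL6 by 0.27 (SE 0.084, adjusted p 0.0450, edgeR). Against LIF the difference was 0.22 with a 95% interval of 0.035 to 0.40, and it did not pass (adjusted p 0.153, edgeR). In a fit of the OSM and LIF groups alone it did (adjusted p 0.00301, edgeR). Without OSM replicate 1 the change against control was 0.30 and was not called (adjusted p 0.0926, edgeR).

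Slc2a4 (ENSMUSG00000018566) encodes GLUT4, the transporter that insulin and contraction bring to the fibre surface. It was at 20.5 and 21.2 CPM in control, 13.1 and 18.8 with IL6, 14.2 and 12.9 with LIF, and 17.9 and 18.2 with OSM. All 6 cytokine libraries lay below both controls. The fall was called with LIF, at −0.63 (SE 0.14, adjusted p 0.0139, edgeR), a change of −35.2%. With OSM the value was −0.21 (SE 0.13, adjusted p 0.306, edgeR) and with IL6 −0.39 (SE 0.14, unadjusted p 0.0131, adjusted p 0.943, edgeR). Without IL6 replicate 2 the IL6 value was −0.67 and was called (adjusted p 0.0154, edgeR). The LIF call was lost without control replicate 2 (adjusted p 0.0621), LIF replicate 1 (0.0740) or LIF replicate 2 (0.169), where the value stayed between −0.56 and −0.69. The direct difference between OSM and LIF was 0.41 (adjusted p 0.0955, edgeR), between OSM and IL6 0.18 and between LIF and IL6 −0.23 (interval −0.54 to 0.068). None of these passed. In a fit of the OSM and LIF groups alone their difference did (adjusted p 0.00171, edgeR). Per transcript length, Slc2a4 made up 4.43% and 5.32% of the summed Slc2a1 and Slc2a4 level in control and 2.95% and 2.71% with LIF, and Slc2a1 was the higher of these 2 transcripts in every library.

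Among other transport genes fixed as a list, 11 of 12 were tested. With OSM 4 rose and 1 fell, with LIF 3 rose and 0 fell, and with IL6 0 changed, at list medians of 0.052, 0.15 and 0.017. Over all genes 21.4% were called with OSM and 7.66% with LIF. Tbc1d4, which encodes the AS160 protein that holds GLUT4 vesicles back until insulin signals, rose from 36.1 and 44.1 CPM in control to 53.3 and 57.4 with OSM (0.46, SE 0.092) and 54.4 and 59.9 with LIF (0.51, SE 0.092). Slc2a6 rose by 0.50 with OSM and 0.57 with LIF, and Slc2a8 by 0.47 and 0.41. Both encode less studied members of the GLUT family. Bsg, whose product basigin carries lactate transporters to the membrane, rose with OSM by 0.23 (SE 0.066). Slc16a7, which encodes the lactate transporter MCT2, changed by −1.48 with OSM (SE 0.37), at a level of 1.24 CPM or less in every library.

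The 2 hexokinases trap glucose as glucose-6-phosphate. Hk1 and Hk2 were not called in any of the 6 comparisons. Hk2, the insulin-responsive muscle form, was at 445 and 378 CPM in control and 449 and 418 with OSM, a change of 0.073 with an interval of −0.090 to 0.24. The Hk1 share of the pair per transcript length was 56.5% to 60.5% over the 8 libraries.

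Promoters are shown for 3 of the genes that rose with OSM, those with the largest rises, and for Ckb, the 1 that fell, so that both directions can be seen. They are RefSeq windows of 300 bases, from 250 before to 50 after an annotated start, on GRCm38.p6, while the submitters' processing notes name GRCm39, so the coordinates hold for GRCm38.p6 only. Capitals mark the core of the hypoxia-response element that HIF-1 binds, searched as ACGTG and GCGTG on both strands, and the STAT motif TTCNNNGAA, which is not in these 4 windows but is in the window of the other Aldoc start (2 matches) and of Ckmt2 (1). Slc2a1 lies at chr4:119108495-119108794 on the plus strand, Aldoc at chr11:78322823-78323122 on the plus strand (the first of 2 starts), Gbe1 at chr16:70313699-70313998 on the plus strand and Ckb at chr12:111672289-111672588 on the minus strand.
Slc2a1: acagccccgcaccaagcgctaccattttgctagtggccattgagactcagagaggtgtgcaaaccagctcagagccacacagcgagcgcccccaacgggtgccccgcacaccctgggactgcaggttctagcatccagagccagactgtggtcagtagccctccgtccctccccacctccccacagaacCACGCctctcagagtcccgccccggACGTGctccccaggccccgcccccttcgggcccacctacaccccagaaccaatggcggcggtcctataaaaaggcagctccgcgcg
Aldoc: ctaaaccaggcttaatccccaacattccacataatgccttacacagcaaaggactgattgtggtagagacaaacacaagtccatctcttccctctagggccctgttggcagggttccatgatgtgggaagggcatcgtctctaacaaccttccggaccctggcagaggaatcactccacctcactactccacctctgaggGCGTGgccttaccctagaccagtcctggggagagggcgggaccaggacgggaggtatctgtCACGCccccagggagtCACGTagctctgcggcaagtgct
Gbe1: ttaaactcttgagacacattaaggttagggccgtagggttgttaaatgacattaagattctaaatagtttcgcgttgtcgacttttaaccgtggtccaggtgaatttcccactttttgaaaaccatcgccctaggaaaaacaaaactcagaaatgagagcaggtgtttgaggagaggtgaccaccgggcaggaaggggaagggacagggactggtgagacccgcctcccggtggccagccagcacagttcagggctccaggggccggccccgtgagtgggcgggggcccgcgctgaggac
Ckb: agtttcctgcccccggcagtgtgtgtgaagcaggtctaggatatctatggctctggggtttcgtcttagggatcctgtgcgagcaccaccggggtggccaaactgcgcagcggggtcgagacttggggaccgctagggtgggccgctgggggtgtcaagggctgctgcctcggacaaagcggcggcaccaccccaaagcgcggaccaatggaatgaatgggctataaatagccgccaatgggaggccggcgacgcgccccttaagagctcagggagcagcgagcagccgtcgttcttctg
The Slc2a1 window holds 2 HIF core matches, Aldoc 3, and Gbe1 and Ckb 0. Of 54 windows for the 39 genes with a RefSeq promoter, 74.1% held the HIF core, against 43.8% of all 32851 windows. The median GC content was 61.2% in the former and 52.7% in the latter. The STAT motif was in 5.56% of the 54 windows and 8.30% of all. The E-box CANNTG was in 72.2% and 72.3%. Of the called genes, 7 had a RefSeq promoter, with 9 windows, as Aldoc and Pfkfb3 each have 2 starts. Slc2a4 and Slc6a8 had none. Of the 9 windows, 7 held the HIF core, 2 the STAT motif and 6 the E-box. The motifs are a description of letters and were not tied to binding in these cells.

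HIF-1 is a transcription factor known for inducing glycolytic genes, so 18 genes of its pathway outside glycolysis were read as a list, and all were tested. With OSM 3 rose and 1 fell, with LIF 2 rose and 0 fell, and with IL6 0 changed, with medians of 0.054, 0.032 and 0.051. The 4 of 18 called with OSM stand beside 21.4% of all genes, a share near that background, and the 2 of 18 with LIF beside 7.66%. Hif1a itself, at 266 and 258 CPM in control, was at 347 and 354 with OSM (0.42, SE 0.058) and 383 and 385 with LIF (0.55, SE 0.058). Ndrg1, a gene known to respond to hypoxia, rose by 0.82 with OSM (SE 0.080) and by 0.51 with LIF. P4ha2, a collagen prolyl hydroxylase subunit, rose with OSM by 0.26, and Higd1a, a mitochondrial hypoxia-induced protein gene, fell by 0.22. The other 14 genes of the list were not called with OSM.

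The enzyme genes of glycolysis itself, 16 from hexokinase to pyruvate kinase, took 2.43% to 2.69% of gene counts in each library. Of these 16 only Aldoc was called, with OSM. For the other 15 the OSM changes ran from −0.15 (Eno1) to 0.14 (Hk1), that is from −10.2% to 9.94%. The 95% intervals of these 15 genes reached no further than −0.31 (Eno1) and 0.33 (Hk1). With LIF the 16 changes ran from −0.15 to 0.20 and with IL6 from −0.13 to 0.42, with Aldoc the highest in each.

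Gapdh, which encodes the enzyme that oxidises glyceraldehyde-3-phosphate and is often used as a reference gene, had the highest level of the 41. It was at 7331 and 6389 CPM in control, 6102 and 6641 with IL6, 6262 and 6152 with LIF, and 6553 and 6114 with OSM. The groups overlapped for OSM and IL6, and both LIF libraries lay below both controls. The changes were −0.12 with OSM (interval −0.28 to 0.054), −0.14 with LIF and −0.11 with IL6, and none passed. Per kilobase of transcript, the control level was 4831 CPM for Gapdh, 2524 for Aldoa, 1754 for Pkm, 1292 for Eno1, 1266 for Ldha, 1105 for Tpi1 and 992 for Pgk1. Pfkm, whose product catalyses the committed step, was at 177 CPM per kilobase with values of −0.062 with OSM, −0.067 with LIF and −0.13 with IL6, none of which passed.

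The muscle isozymes Pgam2 and Eno3 were not called with any cytokine. Pgam2, the muscle phosphoglycerate mutase gene, was at 112 and 141 CPM in control, 115 and 137 with IL6, 146 and 141 with LIF, and 133 and 129 with OSM, and all groups overlapped control. Without control replicate 2 its value with LIF was 0.35 and was called (adjusted p 0.0414, edgeR), beside 0.17 with it. Its share of the Pgam1 and Pgam2 level per transcript length was 48.6% to 56.1% over the 8 libraries. Eno3, the muscle enolase gene, was at 561 and 590.3 CPM in control and 535 and 512 with OSM. Both OSM libraries lay below both controls, and the value of −0.14 (interval −0.27 to −0.008) did not pass (adjusted p 0.127, edgeR). Pfkl and Pfkp, the liver and platelet phosphofructokinase genes, had OSM values of 0.052 and 0.055 and held 21.3% to 25.7% and 13.9% to 17.9% of their family's level.

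**Figure D2:**
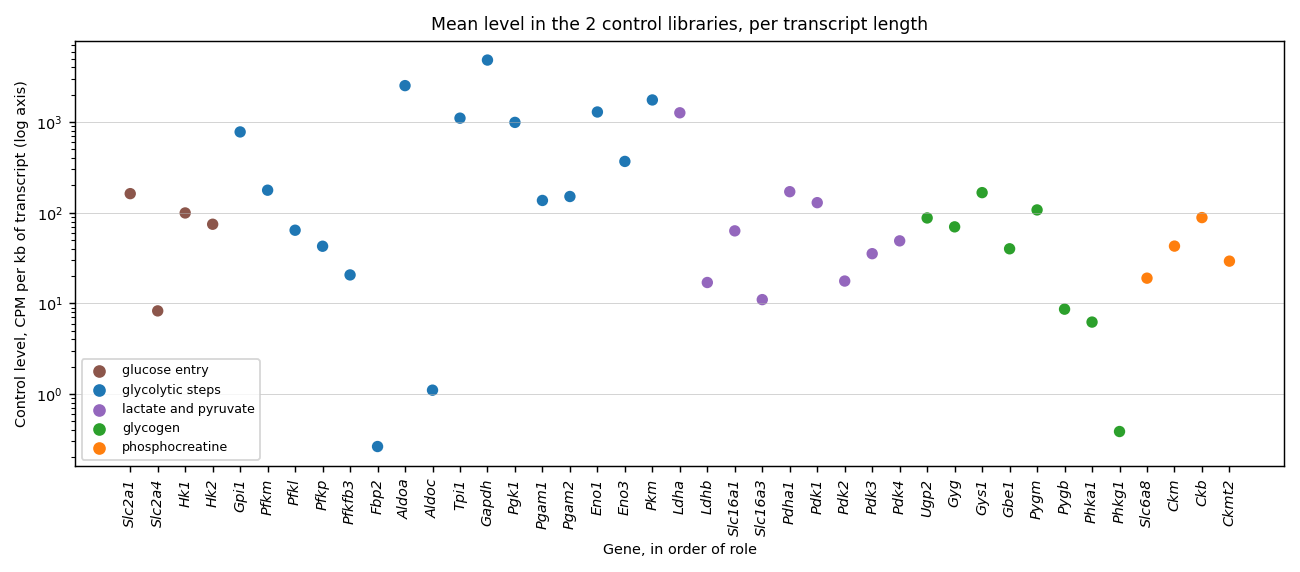
Mean level of each of the 41 genes in the 2 control libraries, in CPM per kilobase of transcript on a log axis, with genes in order of role and coloured by it. Gapdh (4831), Aldoa (2524) and Pkm (1754) are the highest, and Aldoc (1.10), Phkg1 (0.386) and Fbp2 (0.264) the lowest.

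Some of these transcripts share sequence with pseudogenes or overlapping genes. The share of 50-base stretches of the longest coding transcript that recur in other GENCODE M21 genes was 82.5% for Gapdh, 72.2% for Eno1, 68.0% for Pgk1, 41.5% for Pgam1 and 34.4% for Pkm. Of the 41 genes, 14 were above 10%, including Ckb at 21.9% and Ckm at 11.7%. The levels of these 14 genes are uncertain. For Ckm and Pfkp the shared stretches belong to a gene that overlaps them on the opposite strand, and the strand setting of the counting is not given in the sources used here.

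Aldoc (ENSMUSG00000017390) encodes the brain-type aldolase and was a minor transcript here. It was at 3.57 and 2.59 CPM in control, 4.30 and 3.91 with IL6, 3.46 and 3.62 with LIF, and 5.37 and 4.43 with OSM. Both OSM libraries lay above all others, both IL6 libraries lay above both controls, and the control and LIF ranges overlapped. With IL6 the value against control was 0.42 and did not pass (adjusted p 0.943, edgeR). The direct difference between OSM and LIF was 0.47 (adjusted p 0.174, edgeR) and between OSM and IL6 0.25 (interval −0.15 to 0.66). Neither passed, though the first did in a fit of the OSM and LIF groups alone (adjusted p 0.0433, edgeR). The rise with OSM was 0.67 (SE 0.19, adjusted p 0.0247, edgeR), the largest of the 40 genes, and it rests on 77 to 157 counts per library. Its share of the Aldoa and Aldoc level per transcript length was at most 0.0784%. The call was lost without control replicate 2 (0.47, adjusted p 0.163), OSM replicate 1 (0.53, adjusted p 0.215) or OSM replicate 2 (0.80, adjusted p 0.0501).

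Pfkfb3 (ENSMUSG00000026773) encodes the enzyme that makes fructose-2,6-bisphosphate, the activator of phosphofructokinase. It was at 106 and 92.0 CPM in control, 112 and 99.1 with IL6, 125 and 130.4 with LIF, and 128 and 115 with OSM. The LIF and OSM libraries all lay above both controls, and the IL6 libraries overlapped them. The rise was 0.29 with OSM (SE 0.084, adjusted p 0.0246, edgeR) and 0.37 with LIF (SE 0.084, adjusted p 0.0161, edgeR), beside 0.096 with IL6 (adjusted p 0.950, edgeR). These 2 comparisons share the control libraries. Between OSM and LIF the difference was −0.077, with an interval of −0.26 to 0.10. OSM exceeded IL6 by 0.20 (adjusted p 0.139, edgeR) and LIF exceeded IL6 by 0.27 (adjusted p 0.114, edgeR). Neither passed, though both did without a filter on low counts and with the replicate number as a block. The OSM call was lost without control replicate 2 (0.20, adjusted p 0.145) or OSM replicate 1 (0.21, adjusted p 0.245). The LIF call was lost without control replicate 2 (0.28, adjusted p 0.0980), LIF replicate 1 (adjusted p 0.0884) or LIF replicate 2 (adjusted p 0.170).

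Of 32 other genes of glycolysis, gluconeogenesis and pyruvate handling, 22 were tested. With OSM 1 rose and 1 fell, and with LIF and IL6 0 changed, at list medians of −0.056, −0.025 and −0.014, where 21.4%, 7.66% and 0.0% of all genes were called. The riser was Pfkfb4, a relative of Pfkfb3, at 7.62 and 7.25 CPM in control and 10.5 in each OSM library (0.50, SE 0.13). Pck2, the mitochondrial phosphoenolpyruvate carboxykinase gene, fell from 76.9 and 59.8 CPM to 42.1 and 46.3 (−0.63, SE 0.12). In the pentose phosphate branch, 2 of 7 genes fell with OSM, Rpe by 0.33 and Taldo1 by 0.29 on the log2 scale, and 0 rose, where 10.6% of all genes were called lower and 10.8% higher. The list median was −0.13, and with LIF and IL6 0 of the 7 changed.

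At the end of the pathway, lactate dehydrogenase and the pyruvate dehydrogenase kinases were not called. Ldha was at 2431 and 2164 CPM in control and 2262 and 2091 with OSM, a change of −0.078 with an interval of −0.23 to 0.077. Its share of the Ldha and Ldhb level per transcript length was 98.6% to 98.9% in every library. Pdha1, the catalytic E1 subunit gene of pyruvate dehydrogenase, had values of −0.050 with OSM, 0.002 with LIF and −0.062 with IL6.

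Slc16a1 (ENSMUSG00000032902) encodes MCT1, which carries lactate and other monocarboxylates across the membrane. It was at 294 and 265 CPM in control, 293 and 290.0 with IL6, 354 and 360 with LIF, and 342 and 326 with OSM. The LIF and OSM libraries lay above all control and IL6 libraries, and the IL6 libraries lay within the control range. The rise was 0.26 with OSM (SE 0.063, adjusted p 0.0109, edgeR) and 0.35 with LIF (SE 0.063, adjusted p 0.00403, edgeR), that is 19.5% and 27.8%. LIF exceeded IL6 by 0.29 (SE 0.063, adjusted p 0.0287, edgeR), the 1 gene of the 40 called in that comparison, where 2.78% of all genes were called, 1.76% higher and 1.02% lower. OSM exceeded IL6 by 0.20, just outside the threshold (adjusted p 0.0532, edgeR), and DESeq2 called it (adjusted p 0.0386). The OSM call was lost without control replicate 2 (0.19, adjusted p 0.0654) or OSM replicate 1 (0.22, adjusted p 0.130), and the LIF call without LIF replicate 2 (adjusted p 0.0755). The call between LIF and IL6 was lost without LIF replicate 1 (adjusted p 0.224), LIF replicate 2 (0.280), OSM replicate 1 (0.0712) or OSM replicate 2 (0.0712). Slc16a3, the MCT4 exporter gene, was at 51.1 and 44.3 CPM in control and 59.2 and 54.7 with LIF, and its value of 0.25 with LIF did not pass (adjusted p 0.0973, edgeR). Without control replicate 1 it was 0.36 and did (adjusted p 0.0403, edgeR).

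Pdk4 encodes the kinase that shuts off pyruvate dehydrogenase in fasting and wasting muscle. It was at 137 and 204 CPM in control, 182 and 194 with IL6, 190.0 and 228 with LIF, and 250.5 and 231 with OSM. The OSM libraries were the 2 highest, but the control libraries differed from each other by more than those of any other group. The value with OSM was 0.50 (SE 0.16) with an interval of 0.12 to 0.87, and it did not pass (adjusted p 0.0673, edgeR). Without control replicate 2 it was 0.82 and was called (adjusted p 0.000133, edgeR). Pdk2, the widely expressed kinase, was likewise lowest in control replicate 1, at 33.7 and 45.5 CPM in control and 48.2 and 51.6 with OSM (0.33, adjusted p 0.141, edgeR), and without control replicate 2 was at 0.57 (adjusted p 0.00956, edgeR). With LIF, Pdk4 had a value of 0.29 and was called at 0.61 without control replicate 2 (adjusted p 0.00439, edgeR). Pdk1 and Pdk3 had values of −0.057 and −0.025 with OSM. Pdk4 made up 17.2% and 25.2% of the summed level of the 4 kinases per transcript length in control and 28.1% and 27.0% with OSM.

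**Figure D3:**
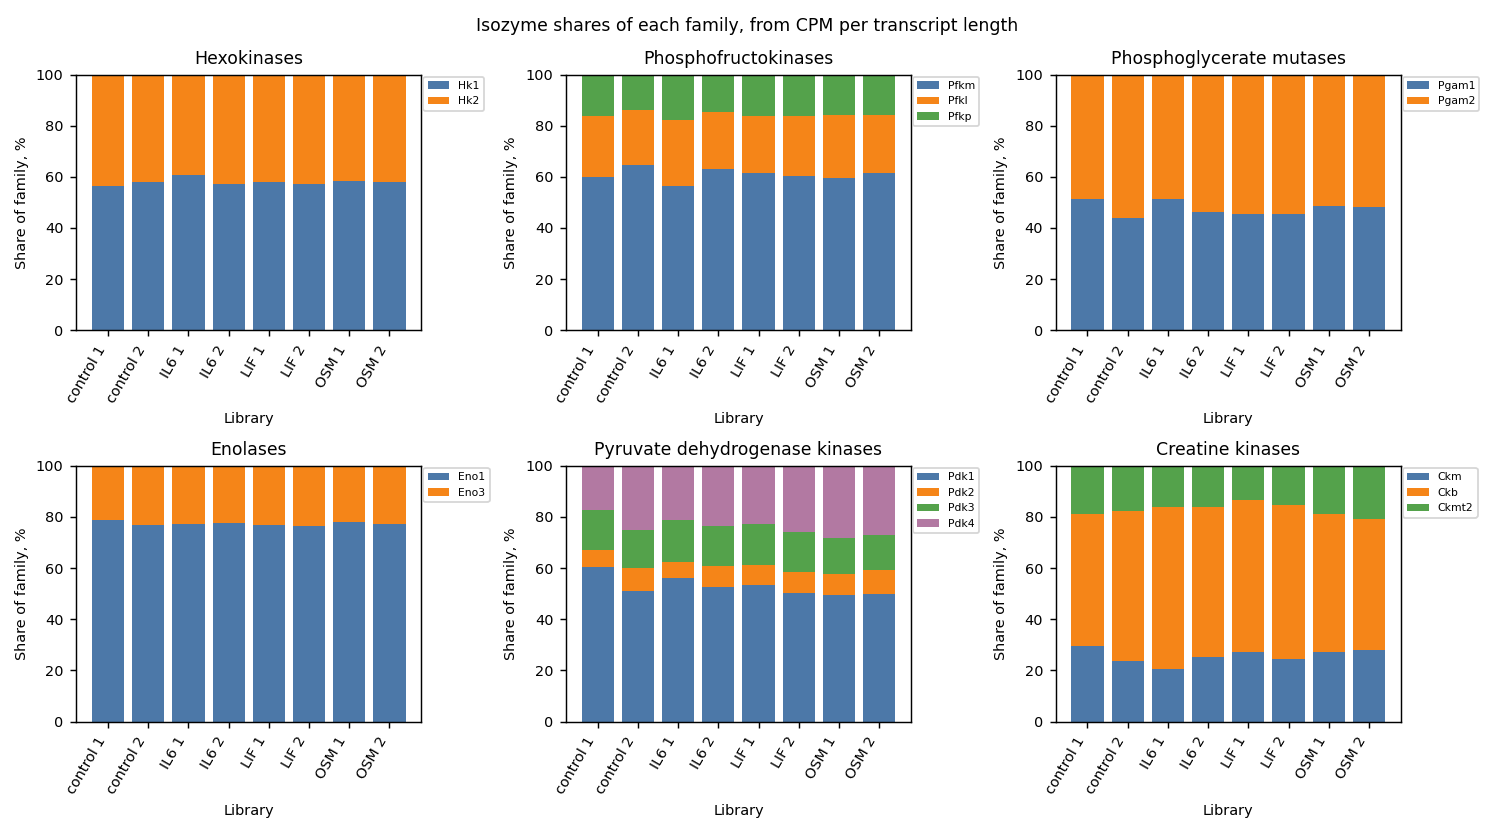
Share of each isozyme (y axis, percent of the family's summed CPM per transcript length) in each of the 8 libraries (x axis) for 6 enzyme families. Over the libraries Eno3 runs from 21.1% to 23.5%, Hk1 from 56.5% to 60.5%, Pfkm from 56.5% to 64.8%, Pdk4 from 17.2% to 28.1% and Ckmt2 from 13.5% to 20.7%.

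Among the glycogen genes Gbe1 rose with OSM and with LIF. Gbe1 (ENSMUSG00000022707) encodes the branching enzyme that adds side chains to growing glycogen. It was at 139 and 125 CPM in control, 177 and 157 with IL6, 169 and 184 with LIF, and 193 and 186 with OSM. All 6 cytokine libraries lay above both controls. The rise was 0.52 with OSM (SE 0.075, adjusted p 0.000258, edgeR) and 0.42 with LIF (SE 0.075, adjusted p 0.00430, edgeR), that is 43.3% and 33.5%. With IL6 the value was 0.34 (SE 0.075, interval 0.17 to 0.50), which did not pass in edgeR (unadjusted p 0.000622, adjusted p 0.438) and did in DESeq2 (adjusted p 0.0489). Without IL6 replicate 2 it was 0.42 and passed in edgeR (adjusted p 0.0207). The 3 comparisons share the control libraries. The direct difference between OSM and LIF was 0.10 (interval −0.060 to 0.26) and between OSM and IL6 0.18 (interval 0.020 to 0.34, adjusted p 0.127, edgeR). The OSM call held in all 13 alternatives, and the LIF call was lost without LIF replicate 2 (0.35, adjusted p 0.0951).

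Of the 8 glycogen genes among the 41, Gbe1 was the 1 called with OSM and with LIF. Gys1, the muscle glycogen synthase gene, was at 672 and 554 CPM in control and 582 and 549 with OSM, with values of −0.12 with OSM, which without control replicate 2 was −0.24 and called (adjusted p 0.0276, edgeR), and 0.077 with LIF. Pygm, the muscle glycogen phosphorylase gene that is lost in McArdle disease, was at 302 and 315 CPM in control, with values of 0.077 with OSM and 0.11 with LIF, and made up 91.9% to 93.0% of the Pygm and Pygb level. Ugp2 and Gyg, which make UDP-glucose and the protein primer of glycogen, had values of 0.076 and 0.002 with OSM. Pygb, Phka1 and Phkg1, a second phosphorylase and 2 subunits of phosphorylase kinase, had OSM values of 0.11, −0.029 and 0.15, and Phkg1 had 25 to 33 counts per library.

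Among 24 other glycogen genes 22 were tested, of which 2 rose and 3 fell with OSM, 2 rose and 0 fell with LIF, and 0 changed with IL6, at list medians of 0.067, 0.087 and 0.038. The 5 of 22 with OSM and 2 of 22 with LIF are near the 21.4% and 7.66% of all genes. Ppp1r3a, which encodes the muscle subunit that directs protein phosphatase 1 to glycogen, rose from 10.9 and 11.2 CPM in control to 17.3 and 19.4 with OSM (0.73, SE 0.10) and to 17.3 and 15.9 with LIF (0.58, SE 0.10). Ppp1r3e, another such subunit gene, rose with OSM by 0.89 (SE 0.27). Stbd1, whose product is thought to carry glycogen to the lysosome, fell from 636 and 492 CPM to 358 and 395 with OSM (−0.58, SE 0.11). The difference between OSM and LIF was −0.60 (SE 0.11, adjusted p 0.00617, edgeR). Calm2 and Calm3, calmodulin genes whose product is also a subunit of phosphorylase kinase, fell with OSM by 0.18 and 0.20.

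Of the phosphocreatine genes, Ckmt2 fell with LIF, Ckb fell with OSM, and Slc6a8 was higher with OSM than with IL6. Ckmt2 (ENSMUSG00000021622) encodes the sarcomeric mitochondrial creatine kinase, which charges creatine with phosphate at the mitochondrion. It was at 45.8 and 41.1 CPM in control, 32.02 and 35.7 with IL6, 32.2 and 32.6 with LIF, and 41.1 and 42.6 with OSM. The IL6 and LIF libraries lay below all control and OSM libraries, and the OSM libraries overlapped the controls. The fall with LIF was −0.42 (SE 0.081, adjusted p 0.00584, edgeR), a change of −25.5%. With OSM the value was −0.055, with an interval of −0.23 to 0.12. OSM exceeded LIF by 0.37 (SE 0.081, adjusted p 0.0117, edgeR) and IL6 by 0.30 (SE 0.081, adjusted p 0.0206, edgeR). With IL6 the value was −0.36 (SE 0.081, interval −0.53 to −0.19), which did not pass (unadjusted p 0.000629, adjusted p 0.438, edgeR), but did without IL6 replicate 2 (−0.44, adjusted p 0.0353).

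Leaving out a library of either group compared ended several of these calls. For the fall with LIF the adjusted p was 0.0756 without LIF replicate 1 and 0.0760 without LIF replicate 2 (edgeR). For OSM against LIF it was 0.142 and 0.0957 without LIF replicates 1 and 2 and 0.0850 and 0.118 without OSM replicates 1 and 2. For OSM against IL6 it was 0.1102 without IL6 replicate 1, 0.0961 without OSM replicate 1 and 0.150 without OSM replicate 2. The value for OSM against LIF lay between 0.34 and 0.40 in all of these fits.

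Ckb (ENSMUSG00000001270) encodes the brain-type cytosolic creatine kinase, which precedes the muscle form during differentiation. It was at 126 and 134 CPM in control, 123 and 128 with IL6, 141 and 127 with LIF, and 118 and 105 with OSM. Both OSM libraries lay below all 6 others. The fall with OSM was −0.23 (SE 0.073, adjusted p 0.0418, edgeR), a change of −14.6%, and the difference between OSM and LIF was −0.27 (SE 0.073, adjusted p 0.0406, edgeR). In that comparison 2 of the 40 genes were called, Ckb and Ckmt2 (5.0%), against 8.04% of all genes, 4.01% higher and 4.04% lower. With LIF and IL6 the values against control were 0.039 and −0.053. The call with OSM was lost without control replicate 2 (−0.17, adjusted p 0.195), OSM replicate 2 (−0.15, adjusted p 0.340), LIF replicate 1 (adjusted p 0.0591) or LIF replicate 2 (adjusted p 0.0588). The call between OSM and LIF was lost without LIF replicate 1 (−0.19, adjusted p 0.442), LIF replicate 2 (−0.34, adjusted p 0.0661), OSM replicate 1 (−0.35, adjusted p 0.0714) or OSM replicate 2 (−0.19, adjusted p 0.356).

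Ckm (ENSMUSG00000030399), the muscle creatine kinase gene, varied between replicates. It was at 133 and 102 CPM in control, 74.5 and 102 with IL6, 120.0 and 96.6 with LIF, and 109 and 107 with OSM. Of the IL6 libraries, replicate 1 lay below both controls and replicate 2 was level with the lower control, and the other groups overlapped the controls. The values were −0.12 with OSM (interval −0.51 to 0.27), −0.12 with LIF and −0.42 with IL6, and none passed. In GENCODE M21, 15.5% of the exon bases of Ckm overlap A930016O22Rik on the opposite strand. Ckm made up 20.5% to 29.4% of the family's level per transcript length, Ckb 51.3% to 63.2% and Ckmt2 13.5% to 20.7%. These shares depend on the transcript lengths used, 2742 bases for Ckm, 1472 for Ckb and 1486 for Ckmt2. Before division by length, the control means were 118 CPM for Ckm and 130 CPM for Ckb.

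Slc6a8 (ENSMUSG00000019558) encodes the creatine transporter. It was at 69.2 and 81.3 CPM in control, 59.1 and 81.5 with IL6, 87.4 and 88.0 with LIF, and 97.7 and 96.9 with OSM. The LIF and OSM libraries lay above all control and IL6 libraries. OSM exceeded IL6 by 0.47 (SE 0.13, adjusted p 0.0337, edgeR), so that 3 of the 40 genes (7.5%), with Slc2a1 and Ckmt2, were called in that comparison, against 15.5% of all genes, 8.02% higher and 7.52% lower. Against control the value with OSM was 0.37 and missed the threshold (adjusted p 0.0683, edgeR), while DESeq2 called it (adjusted p 0.0157) in a comparison where it called 18.1% of all genes. By edgeR this change was called in a fit of those 2 groups alone (adjusted p 0.00377), with the replicate number as a block (0.0133) and without a filter on low counts (1.4e-05). It was not called with RLE scaling or on leaving out a control, LIF or OSM library. It was also called by edgeR without IL6 replicate 1 (adjusted p 0.00118) or 2 (0.00119), which enter that fit only through the shared spread. The call between OSM and IL6 was lost in a fit of those groups alone (adjusted p 0.0588), without IL6 replicate 1 (0.25, adjusted p 0.0604), without LIF replicate 1 (0.0541) or 2 (0.0543), and without OSM replicate 1 (0.132) or 2 (0.115). Without IL6 replicate 2 the value was 0.72. The call of Slc2a1 between OSM and IL6 was likewise lost without IL6 replicate 2 (0.21, adjusted p 0.167), LIF replicate 1 (0.0835) or 2 (0.0835), and OSM replicate 1 (0.17, adjusted p 0.400) or 2 (0.36, adjusted p 0.0522).

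**Figure D4:**
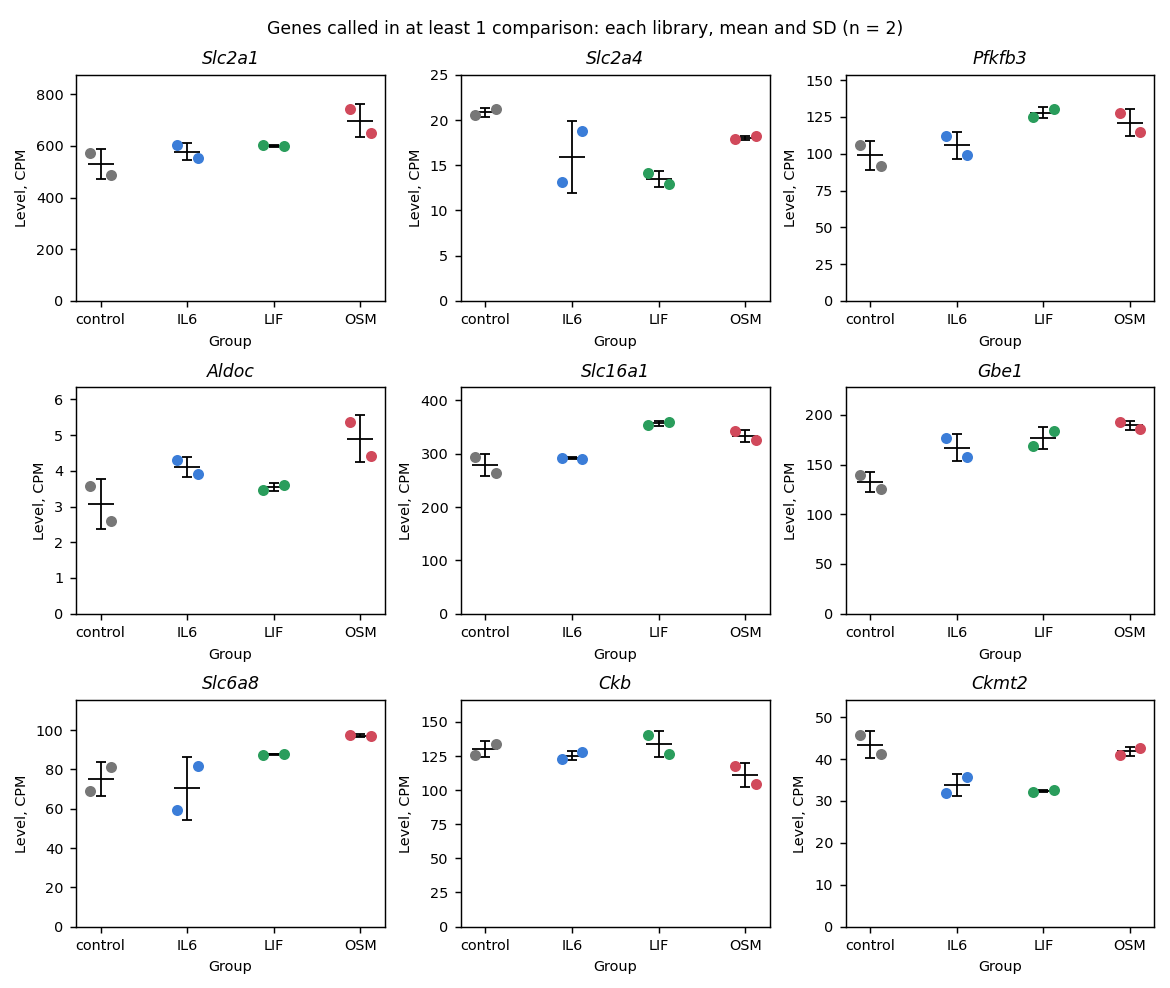
Level in CPM (y axis, from 0) of the 9 genes called in at least 1 of the 6 comparisons, with each library as a point, the group mean as a short line and the SD of 2 libraries as whiskers. Slc2a1 is highest with OSM (743 and 652 CPM), Gbe1 is above control in all 6 cytokine libraries, and Ckmt2 is low with IL6 and LIF (32.02 to 35.7 CPM) and near control with OSM.

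Of 9 other genes of creatine and adenylate metabolism 8 were tested. With OSM 1 rose and 1 fell, with LIF 1 rose and 0 fell, and with IL6 0 changed, at list medians of 0.092, 0.13 and 0.028, beside 21.4% of all genes with OSM and 7.66% with LIF. Ampd3, an AMP deaminase gene, rose from 52.2 and 47.7 CPM in control to 108 and 102 with OSM (1.07, SE 0.090) and 77.9 and 83.3 with LIF (0.69, SE 0.090), and OSM exceeded LIF by 0.38 (SE 0.088). Gatm, which encodes the first enzyme of creatine synthesis, fell from 278 and 250 CPM to 198 and 203 with OSM (−0.40, SE 0.063) and the difference between OSM and LIF was −0.30 (SE 0.063, adjusted p 0.00822, edgeR).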

How the data were processed

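RNA was measured by poly(A) sequencing of 8 libraries from mouse primary myotubes, in 4 groups of 2 taken from the sample labels. The authors deposited 1 table of raw counts by Ensembl gene for each library. Per the submitters' processing notes, the tools include Trim Galore 0.6.5, STAR 2.7.3a and HTSeq 0.11.1 and the build is GRCm39. The strand setting and annotation release are not given in the sources used here. Summary lines for reads with no unique gene, 11.7% to 12.7% of each library, were left out. Symbols came from GENCODE M21, which is on GRCm38. Counts were tested with edgeR 4.0.16 (R 4.3.3): filterByExpr at a minimum count of 10, which left 15603 genes, TMM scaling, a robust quasi-likelihood fit of 4 group means (4 residual degrees of freedom) and the F test for 6 contrasts. CPM are relative to the counts of the tested genes. Levels per transcript length use the longest coding transcript of M21. Intervals are 95% t intervals from the fit. They were tried on counts simulated with the spread of that same fit, shared by all groups. This cannot show whether they hold where groups differ in spread. The genes and lists were chosen with earlier results of these data known. Named genes are those called in at least 1 contrast, those needed for an isozyme family and, from each other list, up to 5 called with OSM by size. Alternatives were scaling by median ratios (RLE), no filter, DESeq2 1.42.0, fits of 2 groups, a replicate block and leaving out each library. The result of 1 gene of the other lists is not reported here.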

Additional observations from a re-analysis of the deposited data

Results flagged for a closer look

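In the direct tests between cytokines, 5 of the 40 tested genes were called in at least 1 comparison. The share called was 5.0% for OSM against LIF, 7.5% for OSM against IL6 and 2.5% for LIF against IL6. Over all genes it was 8.04%, 15.5% and 2.78%. Ckmt2 was higher with OSM than with LIF by 0.37 and than with IL6 by 0.30 on the log2 scale. Ckb was lower with OSM than with LIF, at −0.27. Slc2a1 and Slc6a8 were higher with OSM than with IL6, by 0.27 and 0.47. Slc16a1 was higher with LIF than with IL6, by 0.29. Each kept its sign in all 13 alternatives, and each lost its call in at least 3 of them.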

How the results depend on the processing

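The 17 called changes of single genes kept their sign in all 13 alternatives. The call of Gbe1 with OSM held in each, and 16 were lost in at least 1, in all cases but Slc6a8 (OSM against IL6) only when a library was left out. Counts of the 40 genes called, leaving out each library in turn, ran from 2 to 7 for OSM, 0 to 6 for LIF and 0 to 3 for IL6 against control, 0 to 3 for OSM against LIF, 0 to 6 for OSM against IL6 and 0 to 3 for LIF against IL6. Over all genes these ranges were 1628 to 4048, 310 to 1684, 0 to 202, 430 to 1758, 1096 to 2712 and 78 to 712. Dropping a library that is in neither group also moved counts through the shared spread, and a lone sample is assumed to vary like the other groups. Without a filter on low counts the genes called among the 40 were 2 for IL6 against control (97 of all genes). They were 4 for OSM against LIF (1742 of all genes), 6 for OSM against IL6 (2843) and 3 for LIF against IL6 (985). DESeq2 called 1 with IL6 (19 of all genes). Fits of the 2 groups alone called 8 for OSM against LIF (2936 of all genes). With the replicate number as a block the counts were 4 for OSM against LIF (1760 of all genes), 6 for OSM against IL6 (3000 of all genes) and 2 for LIF against IL6 (826 of all genes), and over all genes 9 for IL6 against control. Nothing in the labels ties same-numbered libraries to a shared source, and deviations of same-numbered libraries correlated at 0.0071 to 0.18. The cause of these moves was not tested.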
